A study of Mus musculus with 12 samples.

Results

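G1 cyclins and the inhibitors that oppose them were followed through mTOR inhibition in mouse embryonic stem cells with and without Mettl3. The set holds 10 genes, Ccnd1, Ccnd2, Ccnd3, Ccne1, Ccne2, Cdkn1a, Cdkn1b, Cdkn1c, Cdkn2a and Cdkn2b, chosen by symbol from the 24421 gene rows of the deposited count table, and all 10 passed the filter on low counts that left 15281 genes. The cells were of the E14 line, wild type (WT) or knocked out for Mettl3 (KO), the methyltransferase that places N6-methyladenosine on messenger RNA. Both genotypes were grown on gelatin in serum and LIF (FBS) or paused, that is, held for 2 weeks with 200 nM of INK128, an inhibitor of the mTOR kinase. Each of the 4 groups, WT FBS, WT paused, KO FBS and KO paused, held 3 libraries of polyadenylated RNA from 200000 cells per sample. The labels do not say how the knockout was made, whether it is 1 clone, or whether the replicates were separate cultures, so p-values measure the spread between these libraries, which may be technical.

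D-type cyclins activate CDK4 and CDK6, and E-type cyclins activate CDK2. Together these kinases phosphorylate the retinoblastoma family and release E2F factors, which drive the genes of S phase, Ccne1 and Ccne2 among them. The Cip/Kip inhibitors (p21 from Cdkn1a, p27 from Cdkn1b, p57 from Cdkn1c) bind cyclin-CDK complexes, and the INK4 inhibitors (p16 from Cdkn2a, p15 from Cdkn2b) bind CDK4 and CDK6 alone. Embryonic stem cells are known for a short G1 phase with high cyclin E activity and little INK4. mTOR couples nutrients to growth and to the translation of D-type cyclins, and its inhibition brings these cells into a slowly dividing state that resembles embryonic diapause.

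Stretches upstream of the RefSeq start (build GRCm38.p6) of 3 members are shown because results below turn on these genes and RefSeq held an entry for them. They are written 5′ to 3′ on the gene's strand, with the GC box GGGCGG (either strand) and the word TATAA (gene's strand) in capitals. Ccne1, cyclin E1, lies on the minus strand and its stretch at chr7:38107535-38107740 leaves out the 44 bases next to the start that an annotated transcript holds in its 5′ UTR. The Cdkn1a stretch at chr17:29093519-29093768 ends at the nearer of its 2 starts, and the Cdkn1b stretch is chr6:134920151-134920400, both on the plus strand.
Ccne1: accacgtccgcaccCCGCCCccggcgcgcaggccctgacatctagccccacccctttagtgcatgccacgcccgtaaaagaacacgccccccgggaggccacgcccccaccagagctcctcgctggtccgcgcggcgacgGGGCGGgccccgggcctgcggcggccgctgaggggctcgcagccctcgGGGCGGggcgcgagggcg
Cdkn1a: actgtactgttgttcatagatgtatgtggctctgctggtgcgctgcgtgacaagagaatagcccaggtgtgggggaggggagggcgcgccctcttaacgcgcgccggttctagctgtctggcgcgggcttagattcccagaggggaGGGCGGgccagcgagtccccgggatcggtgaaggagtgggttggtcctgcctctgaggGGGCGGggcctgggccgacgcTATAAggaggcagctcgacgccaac
Cdkn1b: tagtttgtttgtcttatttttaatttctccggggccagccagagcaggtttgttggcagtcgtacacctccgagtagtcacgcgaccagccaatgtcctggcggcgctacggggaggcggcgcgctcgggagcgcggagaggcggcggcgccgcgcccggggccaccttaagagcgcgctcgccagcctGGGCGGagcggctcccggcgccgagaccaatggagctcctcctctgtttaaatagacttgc
The Ccne1 stretch held 3 GC boxes and 28 CpG, Cdkn1b 1 GC box and 28 CpG, and Cdkn1a 2 GC boxes and 19 CpG. Of the 3, the Cdkn1a stretch alone held TATAA. RefSeq promoters were matched for 6 members with 9 starts (Ccnd3, Ccne1, Cdkn1a, Cdkn1b, Cdkn2a and Cdkn2b), and Ccnd1, Ccnd2, Ccne2 and Cdkn1c were not matched. In the full windows of 250 bases a GC box stood in 6 of the 9, against 32.74% of 32851 windows of all genes, and TATAA in 1 against 16% of windows. E2F factors are known to bind words such as TTCCCGC, and this word, its variant TTCGCGC, its variant TTGCCGC and its variant TTGGCGC were searched on both strands, where they can overlap each other. Any of them occurred in 1 member window, that of the distal Cdkn2a start, against 7.887% of all windows. These are matches of letters, not sites.

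Total counts ran from 10615548 to 39566713 per library. WT FBS replicate 1 stood apart: 2541 of the genes tested (16.6%) differed over 2-fold from the average of its group mates, against 72 to 644 genes in the other 11 libraries. All 10 embryonic stem cell markers checked were detected in every library, at a summed 4716 to 5206 CPM in WT FBS, 5651 to 6087 in WT paused, 2294 to 2700 in KO FBS and 2904 to 3201 in KO paused cells. Mettl3 message stood at 31.2 to 37.4 CPM in WT FBS and 25.5 to 28.6 in KO FBS libraries. The deleted part is not given, so a count of the entire gene cannot check the knockout. Counts of 4 Y-linked genes were 0 to 7 in all WT libraries and at least 593 in all KO libraries, so the lines differ in more than the labelled gene.

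Ccne1 was the most abundant member per length in WT FBS, KO FBS and KO paused cells, and Ccnd1 in WT paused cells. Levels between genes are compared as CPM per kilobase of merged exons, where CPM are counts divided by library size after edgeR's trimmed mean of M-values (TMM) scaling. In WT FBS cells the order ran from Ccne1 (81.0 ± 39.4 CPM per kb, SD, n = 3) through Ccnd1 (33.5 ± 17.5), Cdkn1c (27.0 ± 16.9), Ccnd3 (23.4 ± 7.14), Ccnd2 (11.3 ± 8.24) and Cdkn1b (9.82 ± 3.77), and the ranges of each neighbouring pair in this run overlapped. Below them came Cdkn1a (4.88 ± 2.36), Ccne2 (4.19 ± 0.911), Cdkn2a (0.438 ± 0.0698) and Cdkn2b (0.195 ± 0.113). In WT paused cells Ccnd1 (40.8 ± 2.23) exceeded Ccne1 (28.2 ± 0.725), Ccnd3 (17.9 ± 2.70) and then Cdkn1b (11.5 ± 0.785) and Ccnd2 (11.4 ± 2.71), the last 2 overlapping. In KO FBS cells Ccne1 (49.4 ± 5.18) and Ccnd1 (26.7 ± 2.23) were followed by Cdkn1a (11.6 ± 1.30), and in KO paused cells Ccne1 (32.2 ± 4.02) by Ccnd2 (25.6 ± 2.66) and Ccnd1 (23.9 ± 0.971), whose ranges overlapped. The 2 INK4 genes held the last 2 places in all 4 groups.

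**Figure D1:**
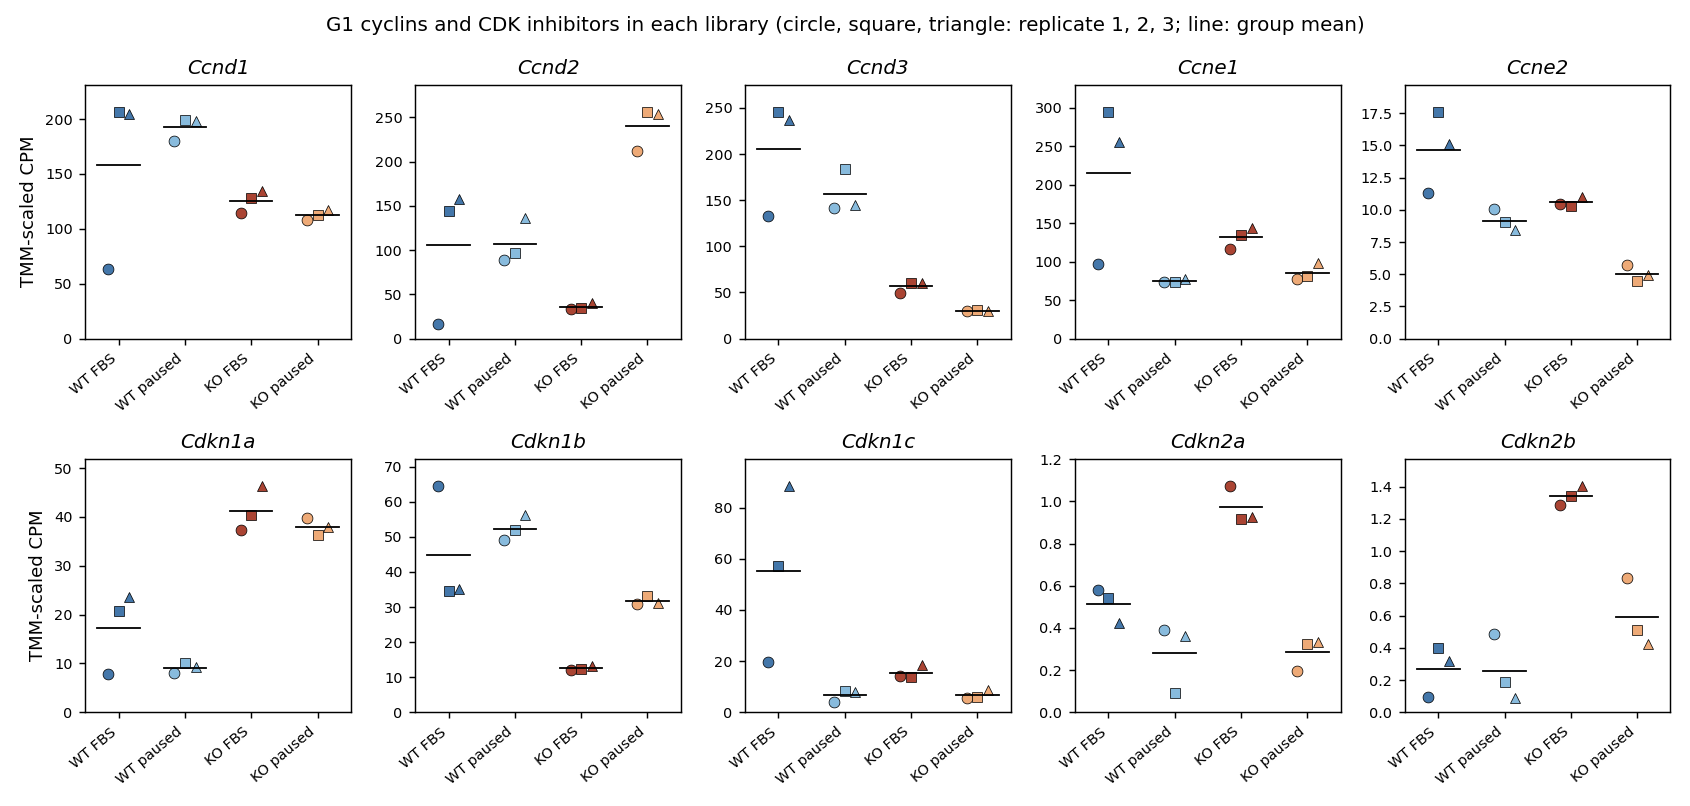
TMM-scaled CPM (y axis, one scale per gene) of the 10 genes in each library of the 4 groups; symbols are replicates and lines are group means. Ccnd2 spans 212 to 256 CPM in KO paused and 33.5 to 40.5 in KO FBS libraries, and the WT FBS circle (replicate 1, 16.7 CPM) lies far from the other WT FBS points.

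The pausing response differed by scale, so each change is given on 2. The relative scale measures a gene against the typical gene, and the per-cell scale measures it against ERCC RNA added to the RNA of equal cell numbers. An error in the spike-in moves every gene of 1 library together. For most members the per-cell fit took the spread almost wholly from all genes together. Its p-values therefore do not measure a gene's own spread between libraries, and very small ones overstate what 3 libraries per group can show. Per cell, the median of all genes fell by 1.05 (log2) with pausing in WT and by 0.72 in KO cells. The ratio of gene to ERCC counts was 47.4, 93.5 and 64.6 in KO FBS replicates 1, 2 and 3, against 72.4 to 74.6 in WT FBS. It was 29.0 to 37.4 in WT paused and 36.5 to 40.3 in KO paused libraries. Per-cell comparisons with KO FBS cells carry the wide spread of that group. Fewer cells, lost RNA and less RNA per cell cannot be told apart, because the standards were added to RNA rather than to cells.

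With pausing of WT cells, 4 members fell on the relative scale (Ccne1, Ccne2, Cdkn1a and Cdkn1c) and 0 rose, where 20.2% of all genes tested were called lower and 18.0% called higher (edgeR quasi-likelihood test, Benjamini-Hochberg adjusted p under 0.05). In 4 members, Ccne1, Ccne2, Cdkn1c and Cdkn2a, WT libraries of the 2 conditions did not overlap, beside 39.3% of all genes. The median of the members was -0.63, beside -0.02 for all genes. Per cell, all 10 were called lower, beside 68.8% of all genes (1.15% were called higher), and the call on Ccnd1, Ccnd2, Cdkn1b or Cdkn2b was lost in 3 to 7 of 17 alternative settings. In KO cells 2 members rose relative to the typical gene, Ccnd2 and Cdkn1b, and 5 fell, Ccnd3, Ccne2, Cdkn1c, Cdkn2a and Cdkn2b, where 23.3% of all genes were called higher and 19.4% lower. Libraries of the 2 conditions did not overlap in 8 members, those 7 and Ccne1, beside 65.6% of all genes. The median of the 10 was -0.76 beside 0.03 for all genes. Per cell, Ccnd2 rose and 8 members fell in KO cells, beside 2.45% of all genes called higher and 45.7% lower. Markers of other cell types moved with pausing too. In WT cells 9 of 9 extraembryonic endoderm markers tested fell (median -1.36, from a summed 236 to 333 CPM to 131 to 164) and 5 of 6 fibroblast markers fell (median -2.67, from 10.2 to 16.95 CPM to 2.76 to 3.70). In KO cells 8 of 8 trophoblast markers fell (median -2.68, from 195 to 251 CPM to 56.3 to 64.1). Not all sets fell. In WT cells 1 of 4 neural markers rose and 2 fell, and their sum was 27.5 to 63.6 CPM in FBS and 112 to 154 when paused. In KO cells 3 of 4 neural markers rose and 1 fell (median 2.56). Of 9 extraembryonic endoderm markers 2 rose and 3 fell in KO cells, and their sum was 279 to 299 CPM in FBS and 377 to 388 when paused. The part of all these markers in the members' changes was not tested.

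Ccnd2 (chr6:127125162-127152193, minus strand in GRCm38, GENCODE vM21, as for the positions that follow) was the member whose pausing response differed most between genotypes. Its level in replicates 1, 2 and 3 was 16.7, 144 and 157 CPM in WT FBS, 88.7, 97.1 and 136 in WT paused, 33.5, 34.3 and 40.5 in KO FBS and 212, 256 and 254 CPM in KO paused cells. The 3 KO paused libraries were the highest of all 12, and the WT groups overlapped because WT FBS replicate 1 was the lowest library of the series for this cyclin. Ccnd2 rose with pausing in KO cells by 2.74 ± 0.54 (log2 ± SE, adjusted p = 0.00149), more than 99.7% of all genes tested. In WT cells the difference was 0.01 ± 0.51 (adjusted p = 0.99), and without WT FBS replicate 1 it was -0.48 (adjusted p = 0.0236). The test of the difference between the 2 responses gave 2.73 ± 0.73 (adjusted p = 0.0233), and 9.61% of all genes were called higher and 8.26% lower in that test. That call was lost in 8 of 16 alternative settings, with values of 2.34 to 3.20, and was 3.20 (adjusted p = 1.26e-06) without WT FBS replicate 1. Per cell, Ccnd2 rose in KO cells by 1.99 ± 0.36 (adjusted p = 2.69e-06), where the typical gene fell, and differed from the WT response by 3.02 ± 0.51 (adjusted p = 6.05e-06), with 3.04% of all genes called higher and 1.66% lower. Leaving out KO FBS replicate 1 or 2 ended both of those calls. In the authors' deposited log2 values, normalized to cell number, Ccnd2 averaged 5.60 in FBS and 7.73 after pausing of KO cells, a difference of 2.13.

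Ccnd1 (chr7:144929931-144939925, minus strand), the D-type cyclin with the highest level per length in 3 of the groups, was not called on the relative scale in either pausing comparison over all 12 libraries. It measured 63.0, 206 and 205 CPM in WT FBS, 180, 199 and 198 in WT paused, 114, 128 and 135 in KO FBS and 108, 112 and 117 in KO paused libraries. Its pausing difference was 0.28 ± 0.30 (adjusted p = 0.498) in WT and -0.16 ± 0.30 (adjusted p = 0.702) in KO cells. Without WT FBS replicate 1 these were -0.11 (adjusted p = 0.224) and a called -0.18 (adjusted p = 0.0236), and the difference of KO FBS from WT FBS cells was -0.69 (adjusted p = 4.52e-08) in place of -0.34 ± 0.30 (adjusted p = 0.358). The WT paused libraries lay above all KO paused libraries, yet the difference of -0.77 ± 0.31 missed the threshold (adjusted p = 0.0502). Exons of a gene on the opposite strand (LTO1) cover 23.4% of its exon length, and the strand setting of the counting is not given in the sources used here.

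Ccnd3 (chr17:47505051-47599691, plus strand) was lower in KO than in WT cells in both conditions. It measured 133, 246 and 237 CPM in WT FBS, 141, 184 and 144 in WT paused, 49.1, 60.1 and 60.2 in KO FBS and 29.9, 30.7 and 30.3 in KO paused libraries. Every KO library lay below every WT library, and the KO groups did not overlap each other. KO cells were lower by 1.86 ± 0.20 (adjusted p = 6.14e-06) in FBS and by 2.37 ± 0.20 (adjusted p = 1.41e-06) when paused, calls kept on the relative scale in all 17 alternative settings. Pausing lowered Ccnd3 by 0.90 ± 0.20 in KO cells (adjusted p = 0.00276). In WT cells the difference was -0.39 ± 0.19 (adjusted p = 0.123), and -0.64 (adjusted p = 1.69e-05) without WT FBS replicate 1. The responses differed by -0.51 ± 0.27 (adjusted p = 0.222).

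Among the D-type cyclin messages of a library, the mix of the 3 genes shifted most with pausing of KO cells. As shares of their summed CPM per kb, Ccnd1 made up 44.2%, 50.3% and 49.9% in WT FBS, 59.97%, 57.4% and 57.6% in WT paused, 72.6%, 72.1% and 71.9% in KO FBS and 46.9%, 43.8% and 44.9% in KO paused cells. Ccnd2 made up 9.66% to 10.8% in KO FBS and 46.1% to 49.8% in KO paused libraries, while Ccnd3 held 16.8% to 18.2% of the sum in the first and 6.24% to 6.97% in the second. In WT cells Ccnd2 held 5.85%, 17.5% and 19.2% before and 14.8%, 14.04% and 19.9% after pausing, and these groups overlapped. Such shares do not depend on how a library was scaled.

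**Figure D2:**
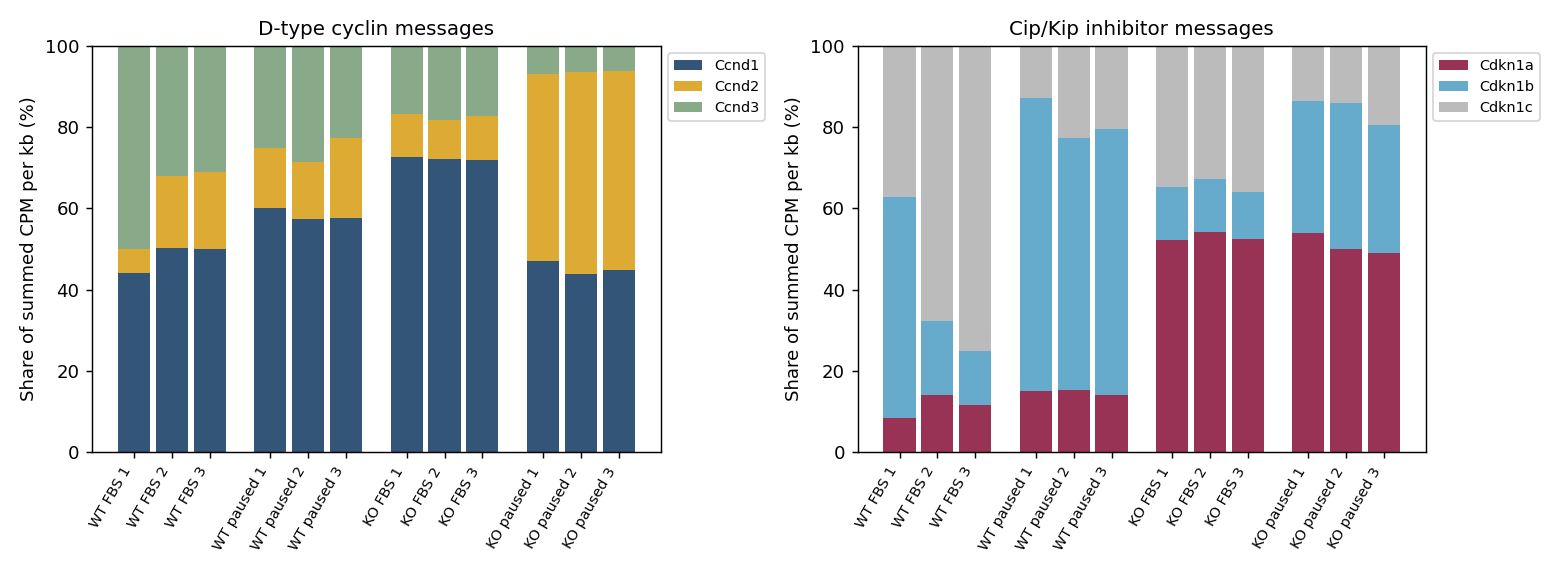
Shares (y axis, percent of summed CPM per kb) of the 3 D-type cyclins (left) and the 3 Cip/Kip inhibitors (right) in each of the 12 libraries. Ccnd2 takes 46.1% to 49.8% of the D-type sum in KO paused libraries, and Cdkn1a takes 48.98% to 54.2% of the Cip/Kip sum in KO libraries against 8.43% to 15.4% in WT libraries.

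Ccne1 (chr7:38097984-38107534, minus strand) fell with pausing in WT cells. It measured 96.6, 295 and 255 CPM in WT FBS, 73.7, 74.0 and 77.2 in WT paused, 116, 135 and 143 in KO FBS and 77.9, 81.4 and 98.0 in KO paused libraries. Every paused library lay below every FBS library of its genotype. The fall was 1.53 ± 0.29 (adjusted p = 0.00184) in WT cells on the relative scale and 2.56 ± 0.34 (adjusted p = 4.58e-12) per cell, and both calls held in all 17 alternative settings. In KO cells Ccne1 differed by -0.62 ± 0.29 relative to the typical gene (adjusted p = 0.1002) and fell by 1.39 ± 0.32 per cell (adjusted p = 1.65e-04). The difference of the responses was 0.91 ± 0.40 (adjusted p = 0.142), and 1.25 (adjusted p = 4.55e-07) without WT FBS replicate 1. Ccne1 was lower in KO than in WT FBS cells by 0.72 ± 0.28 (adjusted p = 0.0463), a call lost in 14 of 17 alternative settings, and the groups overlapped through WT FBS replicate 1.

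Ccne2 (chr4:11191351-11204779, plus strand), the less abundant E-type cyclin, fell in both genotypes. It measured 11.3, 17.6 and 15.1 CPM in WT FBS, 10.0, 9.03 and 8.45 in WT paused, 10.5, 10.3 and 11.02 in KO FBS and 5.73, 4.47 and 4.97 in KO paused libraries. No library of one condition reached the range of the other in either genotype. Pausing lowered it by 0.70 ± 0.16 (adjusted p = 0.00478) in WT and by 1.07 ± 0.16 (adjusted p = 2.02e-04) in KO cells, and these responses differed by -0.37 ± 0.22 (adjusted p = 0.286). KO paused cells were lower than WT paused cells by 0.85 ± 0.17 (adjusted p = 9.1e-04). Exons of Ints8 on the opposite strand cover 17.4% of its exon length.

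The balance of D-type over E-type cyclin message was higher in paused than in FBS libraries of both genotypes. The log2 ratio of their summed CPM per kb was -0.38, -0.41 and -0.20 in WT FBS and 1.06, 1.27 and 1.22 in WT paused libraries. It was -0.49, -0.51 and -0.52 in KO FBS and 0.66, 0.78 and 0.53 in KO paused libraries. The conditions did not overlap in either genotype, and the KO paused values lay below all WT paused values. Among paused cells the D-type sum was 70.1 ± 5.45 CPM per kb in WT against 52.9 ± 3.55 in KO, and the E-type sum was 30.8 ± 0.551 and 33.7 ± 3.98 (SD, n = 3). WT FBS replicate 1 had about the same ratio as the other WT FBS libraries although its sums were low, 30.3 CPM per kb for D-type and 39.5 for E-type cyclins against at least 87.1 and 100.2.

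Cdkn1b (chr6:134920401-134925513, plus strand) rose with pausing in KO cells, from a low starting level. It measured 64.5, 34.5 and 35.1 CPM in WT FBS, 48.97, 52.0 and 56.1 in WT paused, 12.02, 12.4 and 13.1 in KO FBS and 30.9, 33.3 and 31.1 in KO paused libraries. Every KO library lay below every WT library, and WT FBS replicate 1 was the highest of all 12. The rise in KO cells was 1.35 ± 0.20 (adjusted p = 1.82e-04) on the relative scale. The WT difference was 0.25 ± 0.19 (adjusted p = 0.330), and without WT FBS replicate 1 it was a called rise of 0.58 (adjusted p = 3e-06). The responses differed by 1.10 ± 0.27 (adjusted p = 0.0164), a call kept in all 16 alternative settings with values of 0.73 to 1.25. Per cell, Cdkn1b differed by 0.60 ± 0.32 in KO cells (adjusted p = 0.111) and fell by 0.78 ± 0.32 in WT cells (adjusted p = 0.0255), and the responses differed by 1.37 ± 0.46 (adjusted p = 0.0545). KO cells were lower than WT cells by 1.82 ± 0.20 in FBS (adjusted p = 8.31e-06) and by 0.72 ± 0.19 when paused (adjusted p = 0.00717).

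Cdkn1a (chr17:29090976-29100727, plus strand), a classic target of p53, was higher in KO than in WT cells in both conditions. It measured 7.80, 20.6 and 23.5 CPM in WT FBS, 7.98, 10.1 and 9.35 in WT paused, 37.3, 40.3 and 46.4 in KO FBS and 39.8, 36.4 and 37.8 in KO paused libraries. Every KO library lay above every WT library. The KO excess was 1.21 ± 0.26 (adjusted p = 0.00178) in FBS and 2.05 ± 0.29 (adjusted p = 7.19e-05) when paused, and both calls held in all 17 alternative settings on either scale. Pausing left KO cells at a difference of -0.12 ± 0.26 (adjusted p = 0.733) relative to the typical gene. WT cells fell by 0.96 ± 0.29 (adjusted p = 0.0194), with groups that overlapped through WT FBS replicate 1 and a call lost in 5 of 17 alternative settings. The responses differed by 0.84 ± 0.38 (adjusted p = 0.153), and by 1.13 (adjusted p = 4.09e-06) without WT FBS replicate 1. As a share of Cip/Kip message per length, Cdkn1a held 8.43% to 15.4% in WT libraries and 48.98% to 54.2% in KO libraries.

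Cdkn1c (chr7:143458339-143461050, minus strand), an imprinted inhibitor, showed the largest fall among the members in WT cells. It measured 19.7, 57.1 and 88.5 CPM in WT FBS, 3.89, 8.47 and 7.90 in WT paused, 14.3, 13.95 and 18.3 in KO FBS and 5.73, 5.91 and 8.68 in KO paused libraries. FBS and paused libraries did not overlap in either genotype, and the paused groups of the 2 genotypes overlapped. Pausing lowered it in WT cells by 3.02 ± 0.45 (adjusted p = 3.71e-04), further than all but 0.811% of genes tested, and by 4.04 ± 0.37 per cell (adjusted p = 5.01e-24). In KO cells it fell by 1.18 ± 0.42 (adjusted p = 0.0390), a call lost in 7 of 17 alternative settings. The responses differed by 1.84 ± 0.60 on the relative scale (adjusted p = 0.0535) and by 2.11 ± 0.47 per cell (adjusted p = 8.3e-04). The per-cell call was lost with DESeq2 and without WT FBS replicate 3, with values of 1.44 to 2.52 and an adjusted p of up to 0.179 over 16 alternative settings. KO FBS cells were lower than WT FBS cells by 1.84 ± 0.41 (adjusted p = 0.00186), while paused cells differed by -0.01 ± 0.46 (adjusted p = 0.993). An antisense gene (Gm44732) covers 30.7% of its exon length.

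Within the Cip/Kip messages, Cdkn1b held a larger share and Cdkn1c a smaller share after pausing, in WT as well as KO libraries. Cdkn1b held 54.4%, 18.3% and 13.3% of their summed CPM per kb in WT FBS and 72.1%, 62.1% and 65.4% in WT paused libraries, and 11.5% to 13.1% in KO FBS against 31.4% to 35.7% in KO paused libraries. Cdkn1c held 37.2%, 67.6% and 75.2% in WT FBS and 12.8%, 22.6% and 20.6% in WT paused libraries, and 32.7% to 36.05% in KO FBS against 13.5% to 19.6% in KO paused libraries. These shares did not overlap between conditions. Of the WT FBS libraries, replicate 1 was nearest to the paused ones.

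The INK4 genes Cdkn2a (chr4:89274471-89294653, minus strand) and Cdkn2b (chr4:89306299-89311039, minus strand) had few counts in every library. Cdkn2a had 6, 19 and 12 counts in WT FBS, 4, 1 and 8 in WT paused, 25, 26 and 29 in KO FBS and 4, 7 and 11 in KO paused libraries, and these counts join its 2 products, p16 and p19ARF, which start apart. Cdkn2b had 1, 14 and 9, 5, 2 and 2, 30, 38 and 44, and 17, 11 and 14 counts in the same order. KO FBS libraries were the highest for both genes on the CPM scale, at 0.918 to 1.07 CPM for Cdkn2a and 1.29 to 1.40 CPM for Cdkn2b. KO FBS exceeded WT FBS cells by 0.94 ± 0.29 for Cdkn2a (adjusted p = 0.0143) and by 2.07 ± 0.39 for Cdkn2b (adjusted p = 5.96e-04). For Cdkn2a this call was lost without WT FBS replicate 3 (adjusted p = 0.0667), and per cell the gene was not called (adjusted p = 0.0912). Pausing lowered them in KO cells by 1.71 ± 0.31 (adjusted p = 8.77e-04) and 1.23 ± 0.35 (adjusted p = 0.0135). The Cdkn2b call was lost without KO paused replicate 2 or 3, with an adjusted p of up to 0.0747. Because WT paused cells held 9 counts of Cdkn2b in all, a ratio is given: WT paused over WT FBS was 0.642 (95% interval 0.263 to 1.43) and KO paused over WT paused 2.69 (1.29 to 6.29), for counting error only, since reads without molecular identifiers are not independent molecules. The 2 genes lie 11.6 kb apart on chromosome 4.

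**Figure D3:**
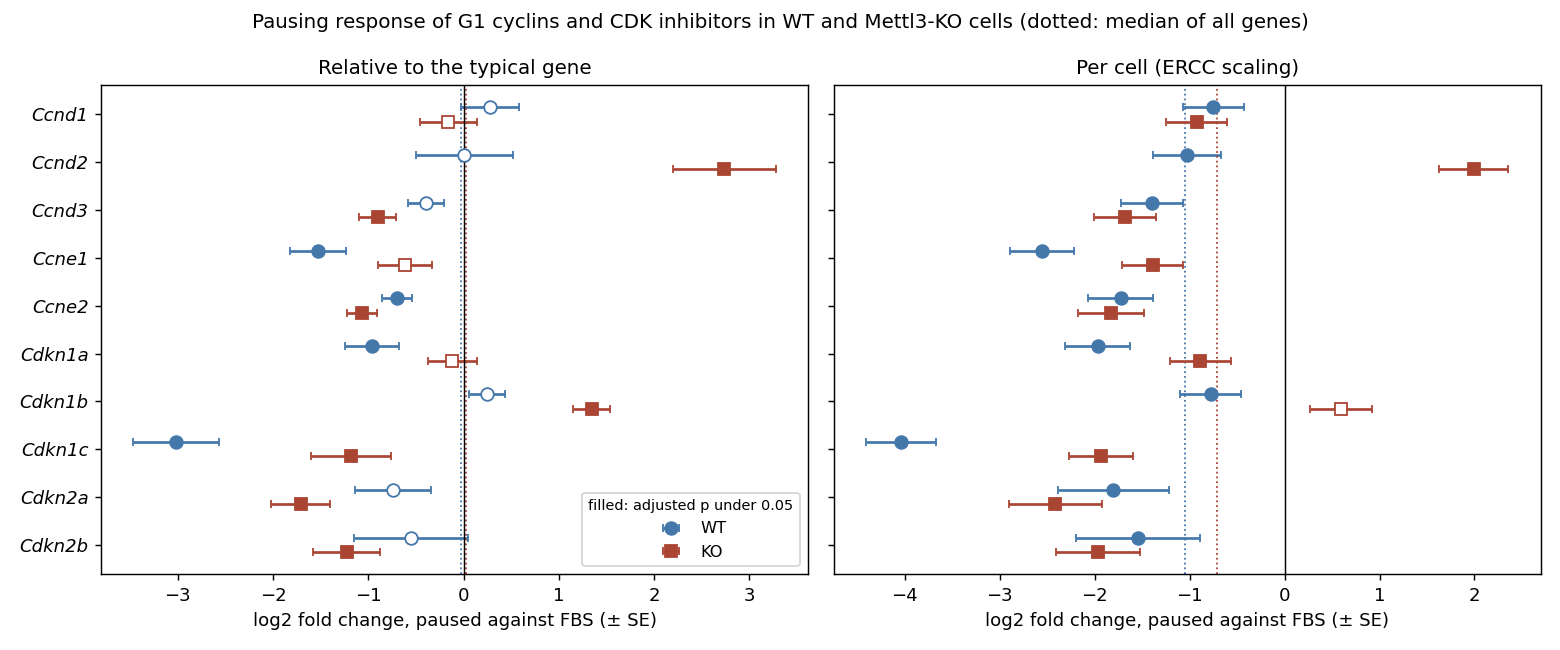
Log2 fold change of paused against FBS cells (x axis, ± SE) for the 10 genes in WT (circles) and KO (squares) cells, relative to the typical gene (left) and per cell (right); filled symbols passed an adjusted p of 0.05 and dotted lines are the medians of all genes. Ccnd2 stands at 2.74 in KO and 0.01 in WT cells on the left, and Cdkn1c at -3.02 in WT cells.

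Between genotypes, 3 members were higher (Cdkn1a, Cdkn2a and Cdkn2b) and 6 lower (Ccnd2, Ccnd3, Ccne1, Ccne2, Cdkn1b and Cdkn1c) in KO than in WT FBS cells, beside 28.4% of all genes called higher and 29.4% lower. The FBS groups of the 2 genotypes did not overlap in 7 members, beside 58.6% of all genes. The call on Ccnd2, lower by 1.57 ± 0.52 (adjusted p = 0.0212) with overlapping groups, was lost in 6 of 17 alternative settings. In paused cells Cdkn1a and Cdkn2b were higher and Ccnd3, Ccne2 and Cdkn1b lower, beside 27.9% and 23.9% of all genes. The paused groups did not overlap in 7 members, beside 69.1% of all genes. The Cdkn2b call (adjusted p = 0.0472) was lost in 11 of 17 settings. Ccnd2 had KO paused libraries all above WT paused libraries, but its difference of 1.16 ± 0.51 missed the threshold on the relative scale (adjusted p = 0.0759) and passed it per cell at 1.54 ± 0.36 (adjusted p = 2.35e-04). Without WT FBS replicate 1, which is in neither paused group but enters the shared estimate of spread, 8 members were called in paused cells, beside 35.1% of all genes called higher and 30.9% lower. Per cell, 2 members were called higher (Cdkn1a and Cdkn2b) and 4 lower (Ccnd2, Ccnd3, Cdkn1b and Cdkn1c) in FBS, beside 19.1% and 9.81% of all genes. When paused, 3 were called higher (Ccnd2, Cdkn1a and Cdkn2b) and Ccnd3 lower, beside 27.1% and 5.62%. Trophoblast markers moved with genotype: 6 of 8 tested were higher in KO FBS cells, with a summed level of 195 to 251 CPM against 47.3 to 74.1 in WT FBS, 32.2 to 48.3 in WT paused and 56.3 to 64.1 in KO paused libraries, and no marker of the list was at 0 in all libraries of a group. Most embryonic stem cell markers were lower in KO than in WT cells. In FBS 7 of 10 were lower and 1 higher, and when paused 8 of 10 were lower and 0 higher. In paused cells 4 of 9 extraembryonic endoderm markers were higher and 2 lower in KO cells, with a summed 377 to 388 CPM against 131 to 164, while Ttr was at 0 in all libraries. Of 6 fibroblast markers tested 4 were higher and 1 lower (8.84 to 10.5 against 2.76 to 3.70 CPM), and of 4 neural markers 3 were higher and 1 lower, although their sum was smaller (64.6 to 78.5 against 112 to 154 CPM). Postn, Lum, Six3 and Neurog2 were at 0 in all WT paused libraries. The part of these markers in the genotype differences was not tested.

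**Figure D4:**
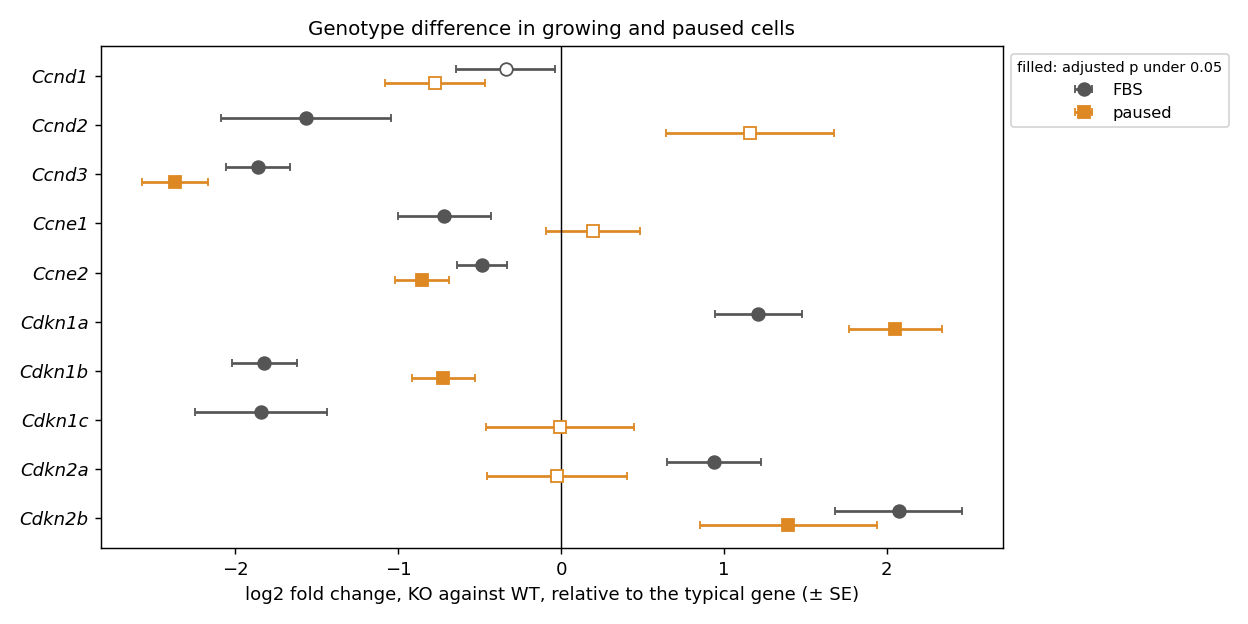
Log2 fold change of KO against WT cells on the relative scale (x axis, ± SE) for the 10 genes in FBS (circles) and paused (squares) cells; filled symbols passed an adjusted p of 0.05. Cdkn1a lies at 1.21 and 2.05 and Ccnd3 at -1.86 and -2.37, while Ccnd2 is at -1.57 in FBS and 1.16 when paused.

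Of the G1 kinases and their activators, Cdk6 rose with pausing of KO cells, as Ccnd2 did, and by less in WT cells. Cdk6, a partner of D-type cyclins, had 40.1 ± 0.723 CPM (SD, n = 3) in KO FBS cells against 102 ± 5.66 after their pausing and rose by 1.35 ± 0.08 (adjusted p = 2.9e-07), with 42.6 ± 3.90 and 50.5 ± 0.309 CPM in WT FBS and WT paused cells. WT libraries also read higher when paused, at 50.2 to 50.9 CPM against 38.3 to 46.0 in FBS. The KO response of Cdk6 exceeded that of WT cells by 1.10 ± 0.12 (adjusted p = 8.35e-05). Cdk4, the other D-type partner, was lower in KO than in WT cells by 0.80 ± 0.11 in FBS (adjusted p = 6.88e-05) and by 0.48 ± 0.11 when paused (adjusted p = 0.00342). Of the 8 kinase and activator genes tested, 2 rose and 3 fell with pausing in WT cells (median -0.07), beside 18.0% and 20.2% of all genes. In KO cells 3 rose and 3 fell (median -0.15), beside 23.3% and 19.4%. Mean levels of Cdk4 and Cdk7 were also higher in KO paused than in KO FBS cells, at 221 against 177 and 101 against 81.0 CPM. Cdc25a, the phosphatase that activates CDK2, and Cdc37, a chaperone of kinases, fell in both genotypes.

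Downstream of the cyclins, 5 of 13 pocket protein and E2F genes fell and 2 rose with pausing in WT cells, and 5 rose and 1 fell in KO cells. Over all genes 20.2% fell and 18.0% rose in WT cells, and 23.3% rose and 19.4% fell in KO cells. E2f8, an E2F that represses, rose in KO cells by 0.79 ± 0.11 (adjusted p = 1.57e-04) and fell in WT cells by 0.35 ± 0.11 (adjusted p = 0.0268), and the difference was 1.14 ± 0.16 (adjusted p = 5.39e-04). Ccna2, cyclin A of S phase and an E2F target, likewise rose in KO cells by 0.37 ± 0.09 (adjusted p = 0.00668) and fell in WT cells by 0.35 ± 0.09 (adjusted p = 0.0110), a difference of 0.72 ± 0.13 (adjusted p = 0.00314). In FBS, 9 of the 13 were lower and 1 higher in KO cells, beside 29.4% and 28.4% of all genes. The lower ones were led by E2f8 (-1.87 ± 0.12) and included E2f2 (-1.72 ± 0.22) and E2f4 (-1.40 ± 0.15), while E2f3 was higher by 0.37 ± 0.09.

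Ubiquitin ligases set the levels of these proteins. Of 19 ubiquitin ligase genes of cyclins and inhibitors, 2 rose and 7 fell with pausing in WT cells, and 3 rose and 1 fell in KO cells, where 18.0% and 20.2% of all genes rose and fell in WT and 23.3% and 19.4% in KO cells. Rnf123, which encodes the ligase that degrades p27 in the cytoplasm, rose in both genotypes, by 0.66 ± 0.09 (adjusted p = 2.17e-04) in WT and 1.10 ± 0.09 (adjusted p = 2.22e-06) in KO cells. Dtl, a receptor of the ligase that degrades p21, was lower in KO cells by 1.06 ± 0.07 in FBS (adjusted p = 2.55e-07) and 1.10 ± 0.08 when paused (adjusted p = 2.25e-07).

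Of the p53 targets other than Cdkn1a, 10 of 18 fell and 0 rose with pausing in WT cells (median -0.50), beside 20.2% of all genes called lower. Without WT FBS replicate 1, 15 of the 18 fell, when 31.7% of all genes were called lower. Zmat3 (-0.72 ± 0.13) and Plk2 (-1.21 ± 0.30) were among them. With pausing of KO cells 3 of the 18 rose and 3 fell (median -0.18), beside 23.3% and 19.4% of all genes. When WT FBS replicate 1 was left out of the fit, 3 rose and 10 fell in KO cells, beside 30.5% and 29.9% of all genes. In paused cells 9 of the 18 were higher and 1, Pmaip1, lower in KO than in WT cells (median 0.54), beside 27.9% and 23.9% of all genes. Without WT FBS replicate 1, 13 were higher and 2 lower, when 35.1% and 30.9% of all genes were called. Eda2r (1.17 ± 0.10), Bbc3 (1.20 ± 0.16) and Trp53inp1 (0.95 ± 0.14) were higher in paused KO cells. In FBS cells 4 of the 18 were higher and 2 lower in KO than in WT cells (median 0.15), beside 28.4% and 29.4% of all genes. Without WT FBS replicate 1, 6 were higher and 6 lower in FBS (median -0.03), when 34.2% and 34.9% of all genes were called. Trp53 message itself was lower in KO cells, by 0.91 ± 0.15 in FBS (adjusted p = 2.01e-04) and 0.98 ± 0.15 when paused (adjusted p = 1.43e-04), a gene singled out after its values were seen. Of the 23 regulators of the members, Trp53 included, 5 rose and 3 fell in WT pausing, beside 18.0% and 20.2% of all genes. In KO pausing 5 rose and 4 fell, beside 23.3% and 19.4%. Between genotypes, 6 of the 23 were higher and 8 lower in KO FBS cells, beside 28.4% and 29.4% of all genes. Among paused cells 7 were higher and 7 lower in KO cells, beside 27.9% and 23.9%. Cbx7, a Polycomb subunit that represses Cdkn2a, was lower in KO FBS cells by 1.14 ± 0.11 (adjusted p = 2.15e-06) and rose with pausing there by 0.91 ± 0.10 (adjusted p = 3.08e-05). Ezh2, the methyltransferase of Polycomb complex PRC2, was lower in KO cells by 0.99 ± 0.08 in FBS and by 0.72 ± 0.08 when paused. Smad3, a mediator of TGF-beta signals known to induce Cdkn2b, rose with pausing in both genotypes, by 1.03 ± 0.12 in WT (adjusted p = 9.09e-05) and 1.03 ± 0.12 in KO cells (adjusted p = 2.57e-05).

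Around Cdkn1c, imprinted genes of the same chromosome region were mostly higher in KO than in WT FBS cells. Of 12 tested, 9 were higher and 1 lower in KO cells, beside 28.4% and 29.4% of all genes. Among the higher were H19 (3.43 ± 0.22), Igf2 (2.12 ± 0.25) and Ascl2 (1.97 ± 0.25), while Cdkn1c was lower. With pausing in WT cells 1 of the 12 rose, 4 fell and 7 were not called (median -0.25), beside 18.0% of all genes higher and 20.2% lower. The 1 that rose was Kcnq1ot1, the antisense RNA that silences genes of the Cdkn1c domain in cis. It rose by 1.29 ± 0.18 (adjusted p = 2.6e-04), from 397 ± 36.6 to 971 ± 196 CPM (SD, n = 3). H19 and Igf2 were among those that fell, by 1.65 ± 0.26 and 2.98 ± 0.35. A link between these changes was not tested. Over the nearest 49 tested genes of each member, the median change lay between -0.61 and 0.37 in all 4 comparisons of groups. The lowest was that of the genes around Ccnd2 in KO paused against WT paused cells (quartiles -0.93 and 0.16). Ccnd2 itself differed by 1.16 there. Ccnd2 and Cdkn1b, the members that rose in KO pausing, lie 7.77 Mb apart on chromosome 6, and the medians of their neighbours there were 0.04 and -0.01.

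For the members the genes with the most similar pattern over the 12 libraries were sought by Pearson's r of log2 CPM among the 11190 tested genes of moderate or higher level (11191 for Cdkn2a and Cdkn2b). Cdkn1b was closest to Rragb, a Rag GTPase of the mTOR pathway (r = 0.994), and Ccne1 to Strap, Gspt1 and Ran (0.992, 0.991 and 0.989). Ccnd3 was closest to Nmral1 (0.996), Ccnd1 to Slc7a3, a transporter of cationic amino acids (0.981), and Cdkn1a to Has2, which makes hyaluronan (0.990). These are descriptions over the same libraries and groups, with no test.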

How the data were processed

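Polyadenylated RNA was measured in 12 libraries. Per the labels' protocols, ERCC Mix 1 was added to RNA from 200000 cells and directional libraries were made. The authors deposited a table of raw counts per symbol, 92 ERCC standards included, and a table of log2 values normalized to cell number. The submitters' processing notes list mm10, edgeR 3.32.1, Subread 1.5.0, featureCounts and Trim Galore 0.4.0 with no roles. The sources used here do not give the aligner, annotation or strand setting.

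Differences were tested by edgeR 4.0.16 (R 4.3.3): a robust quasi-likelihood fit of 4 group means, minimum count 10 and total 15, Benjamini-Hochberg adjustment over 15281 genes. Library size was the gene total times its TMM factor (relative) or the ERCC total times a TMM factor over ERCC rows (per cell). Positions and exon lengths are from GENCODE vM21 on GRCm38. The members and lists were chosen with earlier results of these data known, and the searches for GC boxes and TATAA were added later. The genes named are all members, up to 4 called genes of each list with the lowest p per comparison, those that moved against their list, any gene of a list of 12 or fewer, and genes among the 3 most similar to a member. Alternatives were DESeq2 1.42.0 and its size factors, no filter, a replicate block, the 2 groups alone and leaving out each library. The list counts without WT FBS replicate 1 were chosen after seeing the data. The script was tested on simulated counts.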

Additional observations from a re-analysis of the deposited data

Results flagged for a closer look

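In all, 4 values stood out because the response to pausing differed between the genotypes in a direct test of the difference (edgeR quasi-likelihood test, adjusted over all genes). On the relative scale these were Ccnd2, with a KO minus WT difference of 2.73 (log2, adjusted p = 0.0233), and Cdkn1b, with 1.10 (adjusted p = 0.0164). Per cell they were Ccnd2, with 3.02 (adjusted p = 6.05e-06), and Cdkn1c, with 2.11 (adjusted p = 8.3e-04). In each of the 4 the response in KO cells was the higher, and for Cdkn1c that means a smaller fall. WT FBS replicate 1 lies apart from the other WT FBS libraries for these genes, at 16.7 against 144 and 157 CPM for Ccnd2, 64.5 against 34.5 and 35.1 for Cdkn1b, and 19.7 against 57.1 and 88.5 for Cdkn1c. Without that library the relative differences were 3.20 for Ccnd2 and 0.73 for Cdkn1b, and the per-cell differences 3.53 for Ccnd2 and 2.52 for Cdkn1c, all with an adjusted p under the threshold. Other settings ended calls: the relative Ccnd2 call was lost in 8 of 16, the per-cell Ccnd2 call with DESeq2 and without KO FBS replicate 1 or 2, and the per-cell Cdkn1c call with DESeq2 and without WT FBS replicate 3 (lowest value 1.44, highest adjusted p 0.179).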

How the results depend on the processing

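Of the member values under alternative settings, 1 changed sign with a call: Ccnd2 in WT pausing on the relative scale, which ran from -0.48 (without WT FBS replicate 1) to 0.40 (without WT FBS replicate 3). With only the 2 groups compared, genes called in WT pausing (relative) were 2833 against 5832, members called between paused genotypes (relative) 8 against 5 (all genes 10013 against 7917), and genes called between FBS genotypes (per cell) 2933 against 4416. Without a filter on low counts, 1 member passed the test of the difference in response (relative), against 2. Per cell, DESeq2 called 0 members in that test, with 5 at an unadjusted p under 0.05, against 2 called by edgeR. With the replicate block it called 5 members against 2 and 1970 genes against 718. The groups share replicate numbers, and same-numbered libraries deviated together with correlations of 0.05 to 0.27, not all over 0.1 in any comparison. The main tests did not pair samples by number, a choice that these values do not settle. In 20 of 24 cases a library correlated best with its own number. The ribosomal RNA row Rn45s held 22.1% to 28.0% of gene counts in replicate 1 libraries and 12.9% to 17.6% in the others. These are hints from the data only that libraries of a number share something, and the replicate block allows for it.

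Leaving out 1 library at a time gave 3 to 7 members and 4172 to 9159 genes in WT pausing (relative), 4 to 8 members and 6680 to 10089 genes between paused genotypes (relative), and 1 to 5 members and 1822 to 6442 genes in the difference in response (relative), each highest without WT FBS replicate 1. Per cell it gave 3998 to 10414 genes in KO pausing (without KO paused replicate 1 and KO FBS replicate 1), and 1 to 4 members and 391 to 1720 genes in the difference in response. Depth limits Cdkn2a and Cdkn2b, with at most 44 counts in a library.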
